A study of Mus musculus with 2 samples.

Results

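The receptors for steroid hormones were followed across the cell types of the mouse fetal ovary at E15.5 (E, embryonic day): Nr3c1, which encodes the glucocorticoid receptor (GR); Nr3c2, the mineralocorticoid receptor (MR); Esr1 and Esr2, the oestrogen receptors alpha and beta; and Pgr, the progesterone receptor. They were chosen by name, and all 5 are among the 27998 genes counted. The question asked was which of the other receptors is transcribed in the cells that lose GR, first in the wild-type ovary and then in the knockout.

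These receptors are transcription factors of a shared nuclear receptor family. Each is held by heat shock proteins until its hormone binds, then enters or remains in the nucleus and acts at DNA together with coregulators. MR is the closest relative of GR, binds corticosterone as well as aldosterone, and recognises the same DNA element as GR. PGR also recognises that element, whereas the oestrogen receptors recognise a different one. In the adult ovary ESR2 is the oestrogen receptor best known from granulosa cells and ESR1 from theca and surface epithelium, and Pgr is induced in granulosa cells before ovulation.

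The study made 1 single-cell library from ovaries with a homozygous deletion of GR (KO; 2 female embryos pooled) and 1 from wild-type ovaries (WT; 4 pooled), both at E15.5 and both from mice with Tg(Pou5f1-EGFP)2Mnn and labelled with the Nr3c1tm1.1Jda strain. The KO allele lacks exon 3 of Nr3c1 in every cell, since a β-actin Cre made the deletion. In each library sorted GFP-positive germ cells were mixed with somatic cells at 60 to 40, so the share of germ cells is set by the sort. Reads come from the 3′ ends of transcripts, and each unique molecular identifier (UMI) stands for 1 captured molecule. Levels below are UMIs per 1000000 UMIs of a cell group (CPM). They do not scale with transcript length, although capture can differ between genes. With 1 library per genotype there is no replicate, no test was run over cells, and every interval is an exact 95% interval that covers counting error only. No difference between the libraries could be checked against replicates, and embryo pool, sort and capture cannot be told apart from genotype.

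Under the limits of the study 9045 WT cells (median 15685 UMIs) and 15502 KO cells (median 10194.5 UMIs) remained. Marker genes named the classes: germ-like, pregranulosa-like, stromal-like and epithelial-like as the main ones, and endothelial-like, immune-like, perivascular-like and erythroid-like as small ones. The receptors and the genes of their pathways took no part in the clustering. Sub-clusters of a class are called by their leading gene, and 318 WT and 881 KO cells in sub-clusters led by markers of another class were left out. All 8 listed germ markers, all 8 pregranulosa, all 9 stromal and all 8 epithelial markers were above 0 in their own class in both libraries. That count does not tell the classes apart, since these markers named them and all were above 0 in WT germ-like cells too. There the pregranulosa, stromal and epithelial markers summed to 22.0, 49.5 and 13.3 CPM, against 11625 CPM for the germ markers. The libraries shared 75 barcode sequences, 0.656% of those in WT and 0.421% of those in KO.

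Nr3c1 lies on chromosome 18 of GRCm38 (39410545 to 39519421, minus strand), and no other annotated gene overlaps it. In its longest annotated transcript 4917 bases follow exon 3, and the last exon alone has 4090 bases. A transcript without exon 3 therefore still counts as Nr3c1, so the counts measure how much transcript there was and not whether it was intact. Nr3c1 was nevertheless far lower in KO than in WT in every main class, and the library labels and the targeted gene go together. Germ-like cells had 72.2 CPM (70.7 to 73.7) of Nr3c1 in WT and 11.6 CPM in KO. The WT and KO levels were 22.0 and 5.63 CPM in the pregranulosa-like class, 43.6 and 11.6 CPM in the stromal-like class, and 21.3 and 5.52 CPM in the epithelial-like class.

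In the WT ovary Nr3c1 was the most abundant of the 5 receptors in germ cells by a wide margin. WT germ-like cells (6729 cells) held 8602 UMIs of Nr3c1, 229 of Pgr, 93 of Esr1, 45 of Nr3c2 and 10 of Esr2. Nr3c1 thus made up 95.8% of the receptor UMIs of these cells, and outnumbered the 4 others together 22.8-fold. Nr3c1 was detected in 64.8% of WT germ-like cells, and 7.45% held 4 or more UMIs of it. After every cell was thinned to 3000 UMIs the share was 18.4% (17.5 to 19.3), against 12.2% of stromal-like, 5.99% of pregranulosa-like and 4.52% of epithelial-like cells. No class that is known to lack GR was at hand to set a background for these shares.

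Germ-like and somatic cells of the WT library differed in 4 of 4 receptors with at least 50 UMIs, by 1.5-fold or more. Such a difference was common, since 76.2% of all genes tested passed the same limit. Nr3c1 was higher in germ-like cells (72.2 against 29.6 CPM in all somatic cells), a log2 ratio of 1.29 (1.18 to 1.40). Pgr was higher in WT as well, with 1.92 against 1.19 CPM and a log2 ratio of 0.69 (0.15 to 1.28), but WT stromal-like cells alone had 2.02 CPM, and in KO the log2 ratio was -0.15 (-0.58 to 0.30; 1.40 against 1.55 CPM). Nr3c2 was lower in germ-like cells, with 0.378 against 1.19 CPM and a log2 ratio of -1.65 (-2.35 to -0.94), or -0.93 without 1 group of cells led by Ramp1 that is described further on. Esr1 was lower by far, with 0.781 against 14.8 CPM and a log2 ratio of -4.25 (-4.59 to -3.92). Esr2 had 10 UMIs in germ-like and 35 in somatic cells and stayed under the limit of 50 UMIs.

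**Figure D1:**
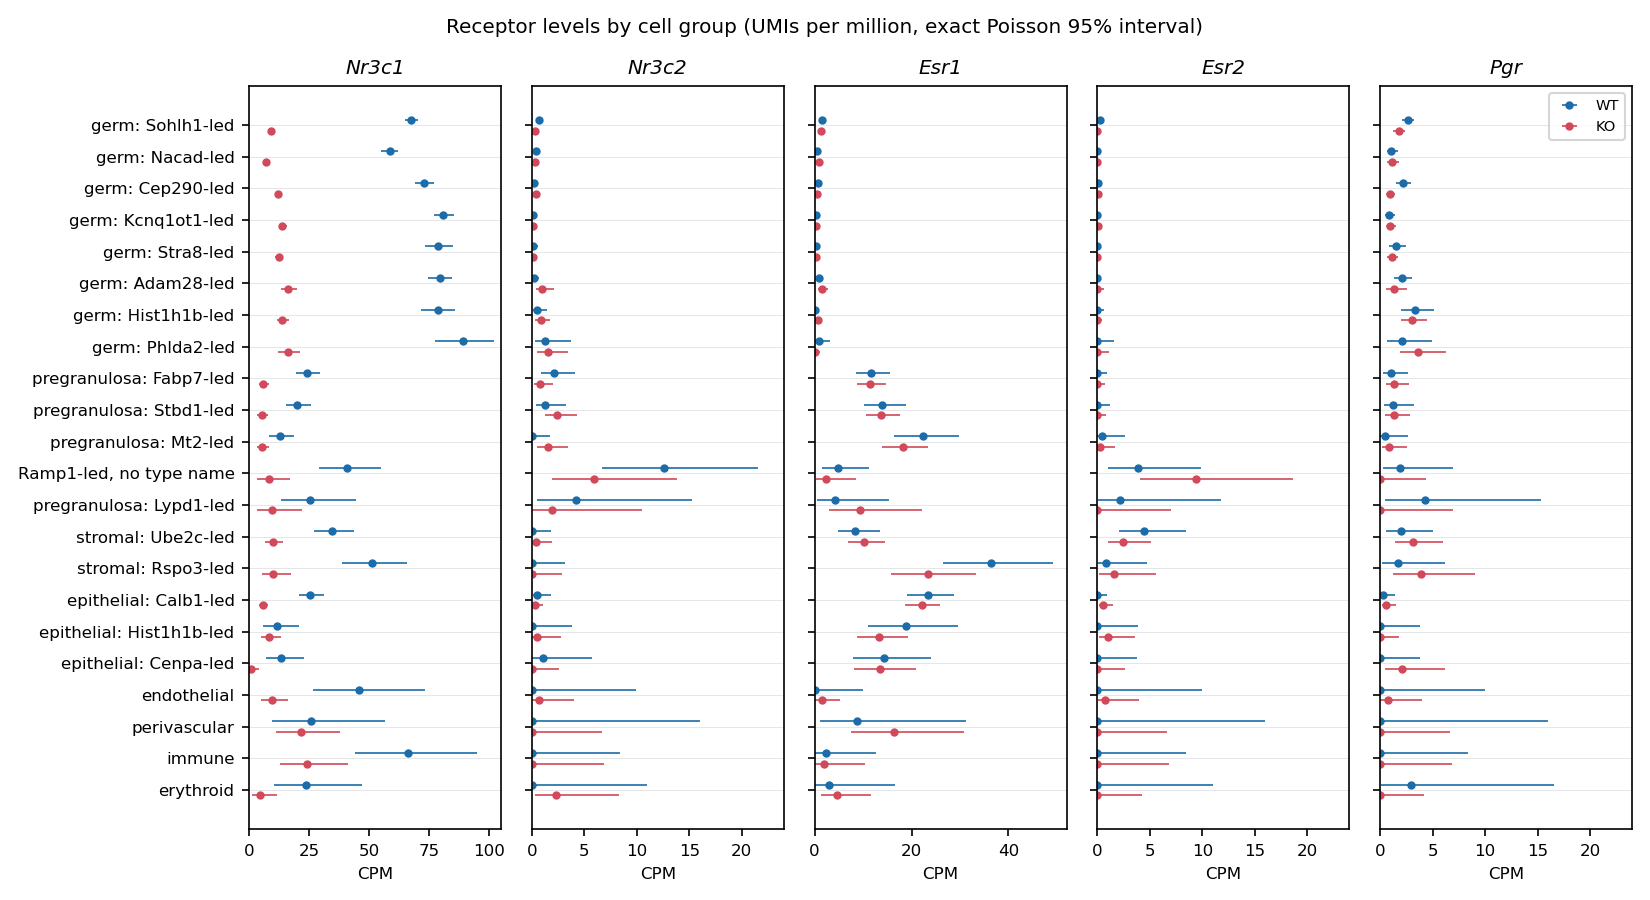
Levels of the 5 receptors (CPM, horizontal axis, a separate panel for each gene) in the cell groups named on the vertical axis of the WT (blue) and KO (red) libraries, with exact Poisson 95% intervals as bars. Nr3c1 lies between 58.6 and 89.2 CPM in all 8 WT germ sub-clusters and lower in KO, Esr1 is found in somatic groups, and the highest WT level of Nr3c2 is in the Ramp1-led cells, which are given no cell type name.

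Among germ cells Nr3c1 was high at every stage that could be named. Premeiotic-like cells, led by Phlda2, had 89.2 CPM (77.5 to 102) in WT. Cells entering meiosis, in sub-clusters led by Stra8 and by histone gene Hist1h1b, had 78.8 CPM (74.5 to 83.4), and early prophase-like cells, led by Kcnq1ot1, had 81.0 CPM (76.9 to 85.2). A sub-cluster led by Sohlh1, a transcription factor of early oocytes, had 67.6 CPM (64.8 to 70.4), and one led by Nacad had the lowest level of the germ sub-clusters, 58.6 CPM (55.1 to 62.1). The range over WT germ cells was thus narrow beside the gap to the other receptors. When germ cells were instead put into 4 equal bins from early to late by their stage markers, WT levels were 81.3, 70.7, 68.9 and 67.0 CPM. In KO the first of these bins had 12.8 CPM and the last 9.86 CPM.

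Pgr came second in WT germ cells, with a UMI in 213 of 6729 cells (3.17%, median depth 17063 UMIs), against 15 of 736 stromal-like cells (2.04%, depth 9753), 12 of 835 pregranulosa-like cells (1.44%, depth 12555) and 1 of 332 epithelial-like cells (0.301%, depth 16889.5). Its WT level was 3.30 CPM (2.01 to 5.09) in the Hist1h1b-led cells and 2.65 CPM (2.12 to 3.26) in the Sohlh1-led cells, and 0.878 CPM (0.502 to 1.43) in the early prophase-like Kcnq1ot1-led cells. In KO these groups had 3.05, 1.76 and 0.979 CPM. The KO over WT log2 ratio in the Sohlh1-led cells was -0.59 (-1.15 to -0.04), and in the Hist1h1b-led and Kcnq1ot1-led cells its interval held 0. The Hist1h1b-led cells were the higher against all other germ cells in both libraries, and the Kcnq1ot1-led cells the lower in WT, while in KO the interval of that difference held 0 (log2 ratio -0.60, -1.35 to 0.08). These sub-clusters were picked out after their values were seen. In the Cep290-led cells, which carried no stage name, Pgr was at 2.15 CPM (1.55 to 2.92) in WT and 0.942 CPM (0.604 to 1.40) in KO. The KO over WT log2 ratio there was -1.19 (-1.98 to -0.43).

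**Figure D2:**
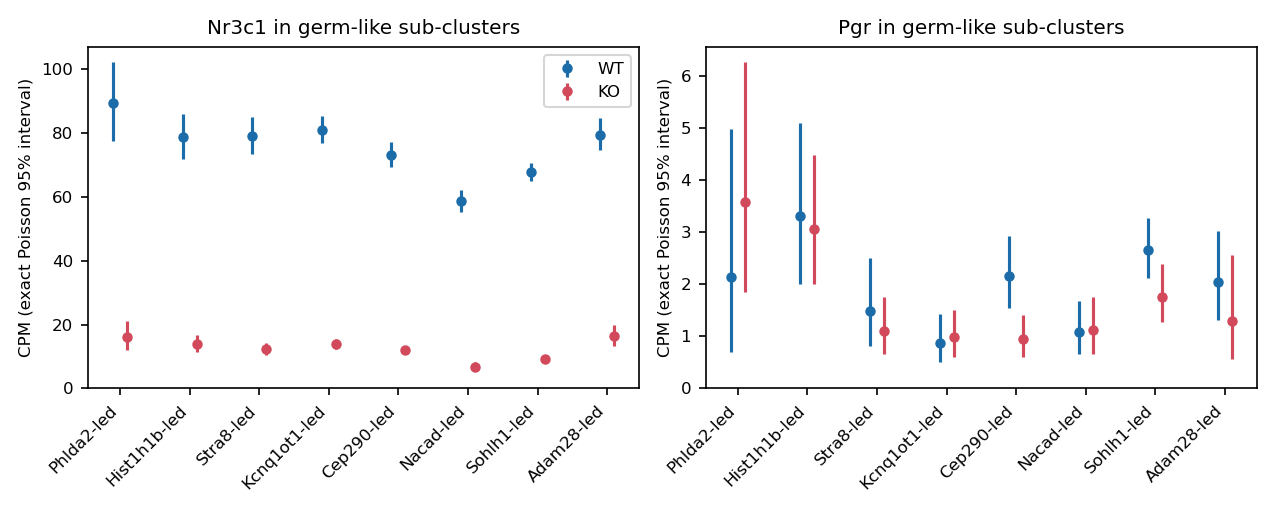
Levels of Nr3c1 (left) and Pgr (right) in CPM in the 8 germ-like sub-clusters, WT in blue and KO in red, with exact Poisson 95% intervals as bars. Nr3c1 in WT lies above KO in each sub-cluster, from 58.6 to 89.2 CPM against 6.82 to 16.3 CPM, while the Pgr intervals of the libraries overlap in all but the Cep290-led cells. The interval of the KO over WT log2 ratio of Pgr lies below 0 in the Cep290-led and also in the Sohlh1-led cells. The KO value of 16.3 CPM is that of the Adam28-led cells, whose median depth was 31693.5 UMIs in WT and 5343 UMIs in KO. Whether that sub-cluster holds like cells in both libraries was not tested.

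The other 3 receptors were sparse in germ cells, and Esr2 was the nearest to the floor of 3 UMIs. A count of 3 UMIs over all WT germ-like cells would stand for 0.0252 CPM. Nr3c2, the receptor nearest to GR in sequence and ligand, had 0.378 CPM (0.276 to 0.505), with a UMI in 43 of 6729 cells (0.639%), against 25 of 835 pregranulosa-like cells (2.99%) and 1 of 736 stromal-like cells (0.136%). By sub-cluster it was between 0.106 CPM in the Stra8-led and 1.28 CPM (0.264 to 3.74, 3 UMIs) in the premeiotic-like cells. Of the 93 Esr1 UMIs of WT germ-like cells 50 were in Sohlh1-led cells, where the level was above that of the other germ cells by 1.59 on the log2 scale (0.97 to 2.21), and by 1.29 (0.61 to 1.95) in KO. Stromal markers were highest in the same cells, at 75.0 CPM summed against 49.5 CPM in all WT germ-like cells (60.8 against 42.4 CPM in KO), and at the share of the highest somatic marker there, 13.0%, somatic RNA would bring 1.93 CPM of Esr1, more than was measured. The part of such RNA in this difference was not tested. Of the 10 Esr2 UMIs of WT germ-like cells 9 were in Sohlh1-led cells, and KO germ-like cells held 3 Esr2 UMIs in all.

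Low counts of this kind can come from RNA of other cells in the same suspension. Markers of the 3 other main classes (19 markers) were present in WT germ-like cells at a median of 1.10% of their level in somatic cells, and at 7.40% for the highest marker. At the median share Esr1 from somatic cells would give 0.163 CPM in germ cells, and at the highest share 1.10 CPM, against 0.781 CPM measured. For Pgr the same values are 0.0131 and 0.0879 CPM, against 1.92 CPM, and for Nr3c2 they are 0.0131 and 0.0879 CPM, against 0.378 CPM. Pgr and Nr3c2 were therefore above that range in germ cells, and Esr1 was inside it. Esr2 was at 0.0839 CPM, against 0.0148 and 0.0993 CPM, and was inside it too.

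Pregranulosa cells are the somatic supporting cells that will surround the oocytes. WT pregranulosa-like cells (835 cells) had 22.0 CPM of Nr3c1 (19.3 to 25.0) and 13.3 CPM of Esr1 (11.2 to 15.6). Nr3c2 followed with 2.49 CPM (1.64 to 3.62) and Pgr with 1.20 CPM (0.638 to 2.05), and Esr2 had 0.553 CPM, from 6 UMIs. Germ markers were present in these cells at a median of 5.23% of their germ cell level, which would give 3.78 CPM of Nr3c1 and 0.0198 CPM of Nr3c2. The same figure in stromal-like cells was 8.43%, or 6.09 CPM of Nr3c1 against 43.6 CPM measured.

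Nr3c2 was highest in a group that is given no cell type name. The Ramp1-led sub-cluster (109 WT and 134 KO cells) clustered with the pregranulosa-like class. Ramp1 is a co-receptor of the calcitonin receptor-like receptor. The 10 leading genes of this sub-cluster, taken against the rest of the class, held 1 stromal marker, the collagen Col3a1. They held 0 pregranulosa markers, but so did those of every other kept sub-cluster of the class. The Ramp1-led sub-cluster held 13 of the 27 Nr3c2 UMIs counted under that class in WT. Its level was 12.6 CPM (6.69 to 21.5), against 1.43 CPM in the rest of the class (log2 ratio 3.14, 1.93 to 4.34). In KO the levels were 5.90 CPM (1.91 to 13.8, 5 UMIs) and 1.47 CPM, a log2 ratio of 2.00 (0.24 to 3.45). These cells also had the highest Nr3c1 level among the sub-clusters of the class in WT, 40.6 CPM (29.3 to 54.9), and the lowest Esr1 level but for the Lypd1-led and Isg15-led cells, with 2 and 1 UMIs, at 4.83 CPM (1.57 to 11.3). They were the only such sub-cluster with more than 1 Esr2 UMI in WT (4 UMIs, 3.87 CPM), and in KO they held 8 of the 9 Esr2 UMIs of the class (9.44 CPM, 4.07 to 18.6). All 8 pregranulosa markers were above 0 in these cells and summed to 2555 CPM, near the 2704 CPM of the whole class. Of 9 stromal markers 8 were above 0 there, summing to 1422 CPM against 361 CPM in the class and 3827 CPM in stromal-like cells, and their part in these levels was not tested. WT stromal-like cells had similar levels of Nr3c1 (43.6 CPM) and Esr2 (3.65 CPM), and 0.126 CPM of Nr3c2, from 1 UMI. Without the Ramp1-led cells the class had 20.1 CPM of Nr3c1, 14.2 of Esr1, 1.43 of Nr3c2 and 0.204 of Esr2 in WT, and 5.48, 14.3, 1.47 and 0.0702 CPM in KO.

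Esr1 was divided the other way within the class. The Mt2-led sub-cluster, named for a metallothionein gene, had 22.4 CPM of Esr1 (16.4 to 29.8) and 12.9 CPM of Nr3c1 (8.47 to 18.7) in WT. Against the rest of the class Esr1 was higher, with a log2 ratio of 1.01 (0.48 to 1.53) in WT and 0.57 (0.11 to 1.01) in KO. Nr3c1 was lower in these cells than in the rest of the class in WT, with a log2 ratio of -0.92 (-1.55 to -0.33). The Fabp7-led and Stbd1-led cells lay between, with 11.7 and 14.0 CPM of Esr1 and 24.1 and 20.1 CPM of Nr3c1. The Mt2-led and Ramp1-led groups were picked out after their values were seen.

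Stromal-like cells, the mesenchymal cells between the cords of germ and supporting cells, had Nr3c1 and Esr1 as their leading receptors, followed by Esr2. In WT (736 cells) Nr3c1 was at 43.6 CPM (39.1 to 48.4), Esr1 at 14.2 CPM (11.7 to 17.1), Esr2 at 3.65 CPM (2.45 to 5.25) and Pgr at 2.02 CPM (1.15 to 3.27). Esr2 was higher there than in the other main classes in both libraries (3.10 CPM in KO, against at most 0.596 CPM elsewhere). The Rspo3-led stromal-like cells (119 WT cells; Rspo3 encodes a secreted enhancer of WNT signalling) had the highest WT level of Esr1 of any group, 36.5 CPM (26.5 to 49.2), against 10.4 CPM in the rest of the stroma, a log2 ratio of 1.82 (1.24 to 2.39). In KO the values were 23.4 and 11.9 CPM, and the log2 ratio was 0.98 (0.34 to 1.57). Esr2 had 1 of its 29 WT stromal UMIs in these cells and 9 in the cycling Ube2c-led stroma.

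Epithelial-like cells of the ovarian surface had as much Esr1 as Nr3c1. In WT (332 cells) each had 126 UMIs, or 21.3 CPM (17.7 to 25.3). Nr3c2 had 3 UMIs and Pgr 1, and no Esr2 UMI was found, where a count of 3 would stand for 0.507 CPM. In KO, Esr2 had 6 UMIs (0.581 CPM, 0.213 to 1.26).

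Endothelial-like and immune-like cells were few, with 30 and 32 cells in WT and 136 and 51 in KO. In WT the endothelial-like class had 45.8 CPM of Nr3c1 (26.7 to 73.4) and the immune-like class 66.1 CPM (44.2 to 94.9), an interval that overlaps that of germ cells. In KO they had 9.33 and 24.1 CPM. Other cells' markers differed too: germ markers were at 1.91% and 5.02% of their germ cell level in these WT classes and at 23.1% and 17.4% in KO, and erythroid markers summed to 30364 and 30306 CPM in WT and 1582 and 72.2 CPM in KO. Their part in the Nr3c1 levels was not tested. The 4 other receptors gave 0 UMIs in WT endothelial-like and 1 UMI, of Esr1, in WT immune-like cells. No receptor UMI in 30 cells allows a share of up to 10.0% of cells with one. Perivascular-like cells (19 in WT, 60 in KO) had 6 and 12 Nr3c1 UMIs and 2 and 9 Esr1 UMIs.

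By level, the order of the 21 WT groups with at least 20 cells was plain only in its blocks. For Nr3c1 the 6 highest groups were germ sub-clusters, and no group in that run differed from the next beyond counting error. The step after them, from 73.0 CPM in Cep290-led to 67.6 CPM in Sohlh1-led germ cells, was the only one between neighbours that did. For Esr1 the only such step was that from Rspo3-led stroma to Calb1-led epithelial-like cells (36.5 and 23.5 CPM). Neighbours in the orders of Nr3c2, Esr2 and Pgr could not be told apart.

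In KO, Nr3c1 was the only receptor past 1.5-fold in germ-like, pregranulosa-like and epithelial-like cells (1 of 4, 1 of 3 and 1 of 2 receptors with at least 50 UMIs over both libraries). Over all genes 7.11%, 3.92% and 3.76% passed that limit in these classes. The log2 ratio of KO over WT for Nr3c1 was -2.64 (-2.73 to -2.56) in germ-like, -1.97 (-2.34 to -1.61) in pregranulosa-like, -1.91 (-2.22 to -1.61) in stromal-like and -1.95 (-2.42 to -1.48) in epithelial-like cells. The KO level was 16.0% of WT in germ-like cells and 25.6%, 26.5% and 25.9% in the 3 somatic classes, and the germ interval does not overlap the somatic ones. In KO germ-like cells 12.4% of cells had a Nr3c1 UMI and 3 of 10092 cells had 4 or more, against 501 of 6729 in WT. After thinning to 3000 UMIs the shares were 3.36% in KO and 18.4% in WT.

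None of the 4 other receptors was higher in KO germ cells beyond counting error. Nr3c2 was at 0.383 CPM in KO and 0.378 in WT, a log2 ratio of 0.02 whose interval runs from -0.61 to 0.65. Esr1 was at 0.707 and 0.781 CPM, a log2 ratio of -0.14 (-0.58 to 0.30). Pgr was lower, at 1.40 against 1.92 CPM, with a log2 ratio of -0.46 (-0.76 to -0.17). The upper ends of these intervals bound any rise at 0.65 on the log2 scale for Nr3c2 and 0.30 for Esr1, as far as counting error goes. Esr2, with 3 and 10 UMIs, was too sparse to compare.

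The somatic receptors were also near their WT levels. Esr1 had a log2 ratio of 0.03 (-0.28 to 0.35) in pregranulosa-like, -0.10 (-0.47 to 0.27) in stromal-like and -0.15 (-0.48 to 0.18) in epithelial-like cells. Nr3c2 in pregranulosa-like cells was at 1.72 CPM in KO and 2.49 in WT (log2 ratio -0.53, -1.37 to 0.30), and without the Ramp1-led cells at 1.47 and 1.43 CPM (log2 ratio 0.05). In stromal-like cells Esr2 had a log2 ratio of -0.23, with an interval that held 0 and ended at 0.54. Pgr was past 1.5-fold, with 3.39 against 2.02 CPM (36 and 16 UMIs), but the interval of its log2 ratio of 0.75 held 0 (-0.14 to 1.70). Over all genes 3.62% passed the limit in stromal-like cells.

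**Figure D3:**
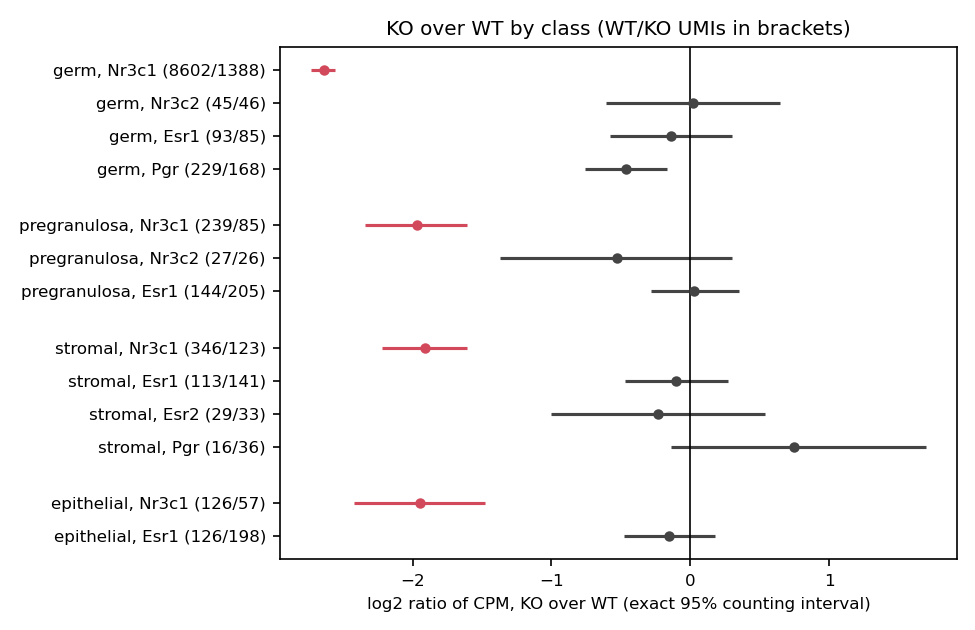
Log2 ratio of the level in KO over that in WT (horizontal axis) for each receptor with at least 50 UMIs in a class, with the exact 95% counting interval as a bar and the WT and KO UMIs in brackets. The 4 Nr3c1 ratios lie between -2.64 and -1.91, while the intervals of all others hold 0 except that of Pgr in germ-like cells (-0.46).

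Which receptor was most abundant in a cell type therefore changed between the libraries mainly through Nr3c1. In WT somatic cells the 4 others together had 484 UMIs against 771 of Nr3c1, and in KO 707 against 307. Esr1 alone outnumbered the remaining Nr3c1 UMIs 2.41-fold in KO pregranulosa-like cells and 3.47-fold in KO epithelial-like cells, while in KO stromal-like cells they could not be told apart (141 and 123 UMIs). In germ-like cells it was otherwise. The 4 others had 302 UMIs in KO against 1388 of Nr3c1, so the transcript that remained was still 4.60-fold more abundant than all of them together and 30.2-fold more abundant than Nr3c2. Summed, the 4 others came to 3.16 CPM in WT germ-like cells and 2.51 CPM in KO.

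**Figure D4:**
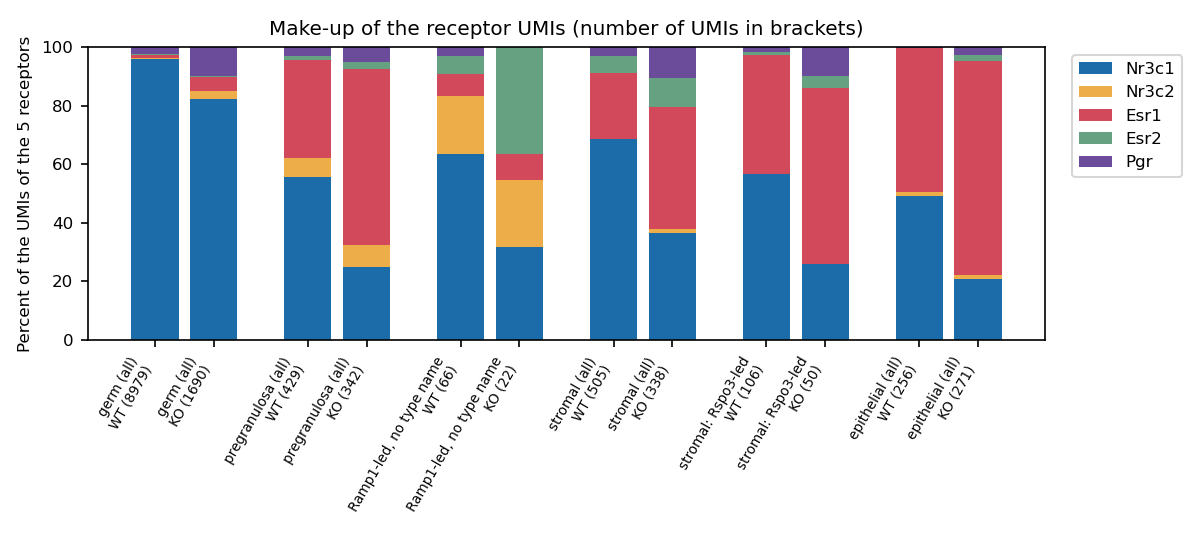
Share of the UMIs of the 5 receptors (vertical axis, percent) taken by each receptor in 6 cell groups, WT beside KO, with the number of UMIs in brackets. Nr3c1 takes 95.8% in WT and 82.1% in KO germ-like cells, while Esr1 is the largest share in KO pregranulosa-like (59.9%), stromal-like (41.7%) and epithelial-like cells (73.1%).

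Within single cells the other receptors were found with and without Nr3c1. After thinning to 3000 UMIs, 20 of 1238 WT germ-like cells with a Nr3c1 UMI (1.62%, 0.990 to 2.48) and 55 of 5491 without one (1.00%, 0.755 to 1.30) held a UMI of another receptor. In stromal-like cells the shares were 11.1% (5.46 to 19.5) and 5.57% (3.93 to 7.63). In KO germ-like cells without a Nr3c1 UMI the share was 0.790% (0.624 to 0.986). At this depth a cell with no Nr3c1 UMI cannot be read as a cell without the transcript.

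Transcripts of enzymes and carriers that act on corticosteroids were counted in the same cells. Hsd11b2, the enzyme that inactivates corticosterone and keeps it from MR, was at 65.0 CPM in WT stromal-like cells against 0.302 CPM in the germ-like and 0.645 CPM in the pregranulosa-like class. Hsd11b1, which regenerates the active hormone, was at 0.882 CPM in WT stroma and under 0.01 CPM in germ-like cells. In KO, Hsd11b2 had a log2 ratio of -0.12 (-0.29 to 0.05) in stromal-like cells. Of the 8 listed genes of corticosteroid enzymes and carriers 4 had at least 50 UMIs in germ-like cells, and 2 of them were lower in KO by 1.5-fold or more, beside 4.52% of all genes that were lower by as much, both drug efflux pumps that export steroids: Abcb1a at 3.73 against 8.91 CPM (log2 ratio -1.26, -1.42 to -1.10) and Abcb1b at 0.391 against 0.697 CPM (-0.83, -1.38 to -0.30). The list had a median log2 ratio of -0.52 in germ-like cells, beside -0.055 over all genes tested. In pregranulosa-like, stromal-like and epithelial-like cells only 1, 2 and 1 of its genes had at least 50 UMIs, and 0 passed the limit, beside 3.92%, 3.62% and 3.76% of all genes. Neither pump reached 50 UMIs there, and Abcb1a was at 1.57, 1.01 and 0.338 CPM in WT and at 1.19, 0.282 and 0 CPM in KO.

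The machinery that all these receptors share was present in every main class. All 10 receptor chaperones and all 12 coregulators had at least 50 UMIs in each main class, and 0 of them passed 1.5-fold in any. Over all genes 7.11%, 3.92%, 3.62% and 3.76% passed in germ-like, pregranulosa-like, stromal-like and epithelial-like cells. With lists this short, a count of 0 is near that share. In germ-like cells Hsp90aa1, which encodes the inducible HSP90, was at 3746 CPM in WT and 4170 CPM in KO, and Smarca4, a chromatin remodelling enzyme, at 238 and 243 CPM. The coregulators had a median log2 ratio of -0.14 in germ-like cells, with the lowest value for Nrip1, a corepressor (-0.40, -0.52 to -0.29). Ncoa2, Ep300 and Crebbp were among the others that were lower (-0.32, -0.28 and -0.27). Ncoa3 and Smarca4 were higher (0.15 and 0.03). The intervals of all these left out 0. The membrane receptors for progesterone were measured apart from PGR. Pgrmc1 was at 36.9 CPM in WT germ-like and 153 CPM in WT pregranulosa-like cells, and Paqr7 at 0.227 and 27.8 CPM. Of this list 0 of 6 measured members passed the limit in germ-like cells, beside 7.11% of all genes. In pregranulosa-like cells 1 of 5, Paqr5, was lower, beside 2.33% of all genes that were lower by as much. Paqr5 was there at 1.72 against 2.77 CPM, with an interval that holds 0 (log2 ratio -0.68, -1.50 to 0.12).

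Targets that GR and MR share were read next to the receptors. Of 12 listed targets 11 had at least 50 UMIs in germ-like cells: 1 was higher and 1 lower by 1.5-fold in KO, beside 2.58% and 4.52% of all genes, with a median log2 ratio of -0.05. The higher was the metallothionein Mt1 (7.11 against 4.40 CPM, log2 ratio 0.69, 0.53 to 0.85) and the lower was Klf9, a Kruppel-like factor (1.55 against 2.40 CPM, log2 ratio -0.63, -0.91 to -0.36). The other listed metallothionein, Mt2, went the opposite way to Mt1 but stayed short of the limit (8.96 against 12.6 CPM, log2 ratio -0.49, -0.61 to -0.38). Mt1 was at 388, 11.8 and 1794 CPM in WT pregranulosa-like, stromal-like and epithelial-like cells. Somatic markers were present in germ-like cells at a median of 1.10% of their somatic level in WT and 1.48% in KO. The part of somatic RNA in the Mt1 difference was not tested. Tsc22d3, which encodes the glucocorticoid-induced leucine zipper, was at 175 CPM in WT and 183 CPM in KO germ-like cells, and Fkbp5, a cochaperone, at 23.9 and 23.4 CPM. In pregranulosa-like, stromal-like and epithelial-like cells 0 of 10, 0 of 10 and 0 of 9 targets passed the limit, beside 3.92%, 3.62% and 3.76% of all genes. Of 7 listed targets of the oestrogen and progesterone receptors other than Pgr, 7 were measured in germ-like cells. Of these 1, the growth factor Igf1, was higher in KO, beside 2.58% of all genes, at 0.915 against 0.571 CPM (log2 ratio 0.68, 0.23 to 1.14). In pregranulosa-like, stromal-like and epithelial-like cells, where Igf1 was at 77.6, 139 and 80.4 CPM in WT, 0 of 5, 0 of 5 and 0 of 4 passed, beside the same shares of all genes. The part of somatic RNA in the Igf1 difference of germ-like cells was not tested either. Greb1, an oestrogen-induced gene, was at 40.8 CPM in WT pregranulosa-like cells and at 35.8 CPM in KO (log2 ratio -0.19, -0.37 to -0.00).

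Genes for the synthesis of sex steroids were at 0.319 CPM or less in WT germ-like cells, except Srd5a1 (4.51 CPM) and Star (3.09 CPM). Of the 8 listed genes of sex steroid synthesis 4 were measured in germ-like cells and 0 passed the limit, beside 7.11% of all genes. In pregranulosa-like cells Hsd3b1, which makes progesterone from pregnenolone, was at 51.9 CPM in WT and 48.0 CPM in KO. There 1 of 4 measured genes was lower past the limit, beside 2.33% of all genes. It was Star, the carrier of cholesterol into mitochondria, at 3.78 against 6.36 CPM (log2 ratio -0.75, -1.28 to -0.22). Cyp19a1, the aromatase that makes oestrogen, was at 0.0922 CPM in WT pregranulosa-like cells. Esrra, an orphan receptor related to the oestrogen receptors, had 6.56 CPM in WT and 7.02 CPM in KO germ-like cells (log2 ratio 0.10, -0.05 to 0.24).

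The genes whose levels followed each receptor most closely were taken over the 21 WT groups, which share 1 library. For Nr3c1 they were Skap2 (Pearson r = 0.92), Tsc22d3 (0.91), Kif21b (0.90), Zyg11b (0.90) and Pias1 (0.89). Tsc22d3 thus ran with Nr3c1 over WT cell groups, from 11.3 to 217 CPM, and yet had a log2 ratio of KO over WT of 0.06 (0.04 to 0.09) in germ-like and -0.03 (-0.18 to 0.12) in stromal-like cells. For Esr1 they were Adamts19 (0.96), Hoxc8 (0.95), Setbp1 (0.95), Ank3 (0.94) and Gpc3 (0.94). Of these Adamts19, a secreted metalloprotease, was lower in KO in the 3 somatic classes, at 26.8 against 69.5 CPM in pregranulosa-like cells (log2 ratio -1.38, -1.55 to -1.20), -0.46 (-0.66 to -0.25) in stromal-like and -0.91 (-1.09 to -0.72) in epithelial-like cells, while Esr1 was not. For Pgr they were Rnf24 (0.89), Pard3b (0.88), Tyro3 (0.87), Aspscr1 (0.86) and Kansl3 (0.85), and each of these was highest in the Lypd1-led pregranulosa-like cells, where Pgr had 2 UMIs. Nr3c2 and Esr2 had 83 and 55 WT UMIs, too few for this comparison.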

How the data were processed

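UMI counts per gene and cell barcode, deposited by the authors as raw whole numbers, came from Cell Ranger, whose version the file headers give as 3.0.2. The submitters' processing notes name build mm10 and Seurat 3.2.3. The KO file held 17829 barcodes and 186117981 UMIs and the WT file 11430 and 168483330. The limits of the study kept cells with 1500 to 6500 genes and 5500 to 40000 UMIs in WT, and 1200 to 5500 genes and 3000 to 30000 UMIs in KO, with under 10% mitochondrial UMIs. These limits differ between the libraries, so depth does too.

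Cells were clustered with scanpy 1.11.5 and leidenalg 0.10.2 (2000 variable genes without the receptors and their pathway lists, 30 components, 20 neighbours, resolution 0.5, seed 1). Numbers of genes and UMIs and mitochondrial and ribosomal shares were regressed out. Within each main class the library was regressed out as well (12 components, resolution 0.5, or 0.3 for stromal-like and epithelial-like cells), a choice made after a first clustering had separated the libraries. A difference from the study's cell types may come from these rebuilt names. Doublets were removed only as an alternative; Scrublet at an expected 8% marked 235 WT (2.60%) and 1023 KO cells (6.60%).

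UMIs were summed per group. Levels carry exact Poisson, ratios exact conditional binomial and shares Clopper-Pearson intervals (scipy 1.17.1), and 3 counts were taken as the floor. A gene was called different at 1.5-fold where both sides together held 50 UMIs or more. Ratios and intervals were tested before use on simulated Poisson counts, which hold counting error only. Receptor positions are from GENCODE M21 (GRCm38). Named genes were the 5 receptors, the 5 genes most correlated with each receptor of at least 200 WT UMIs (log2(CPM + 1), groups of at least 20 cells, genes with at least 500 UMIs) and, from 8 pathway lists, those past the limit or with the most UMIs. A few list members and the sub-clusters set against the rest of their class were named after their values were seen. One further receptor and 1 stromal-like sub-cluster are not reported here. The receptors and lists were chosen with earlier results of these data known.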

Additional observations from a re-analysis of the deposited data

How the results depend on the processing

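Over 12 alternatives, each Nr3c1 ratio of KO over WT kept its direction and lay between -2.67 and -2.56 in germ-like, -2.13 and -1.62 in pregranulosa-like, -2.00 and -1.81 in stromal-like and -2.29 and -1.72 in epithelial-like cells; size factors from the median of ratios gave -2.56 in germ-like cells, and the cause was not tested. The alternatives that kept the left-out sub-clusters and that left out the Ramp1-led cells were chosen after seeing the data. The WT germ over somatic log2 ratio of Nr3c1 was 1.15 with all barcodes, 1.47 with those size factors and 1.12 with the left-out sub-clusters, and that of Esr1 was -3.24 with all barcodes and -3.86 after thinning. Without the Ramp1-led cells that of Nr3c2 was -0.93. Thinning gave -1.32 for Nr3c2 in KO over WT germ-like cells, from few UMIs. For Sohlh1-led over entering-meiosis WT germ cells, thinning gave -0.01 for Nr3c1 and 0.94 for Esr1. The last over the first stage bin gave -0.65 for Pgr and -0.16 for Esr1. Both receptors turned direction there, since each was higher in Sohlh1-led than in entering-meiosis cells, for Pgr with overlapping intervals. Stage differences of Esr1 and Pgr therefore depend on how stages are drawn. The percent of genes past the limit moved with the filter in germ-like, pregranulosa-like, stromal-like and epithelial-like cells: 13.5, 10.6, 10.3 and 11.3 with at least 10 UMIs, 18.0, 15.1, 14.9 and 18.5 with 1 UMI on each side, and 1.77, 0.883, 0.677 and 0.699 at 2-fold. No paired analysis was possible because each genotype has 1 library. With Spearman in place of Pearson 1 of the 5 genes nearest to Nr3c1, 2 of those nearest to Esr1 and 1 of those nearest to Pgr were shared. Without mitochondrial, ribosomal and haemoglobin genes the WT germ level of Nr3c1 was 110 CPM. Depth limits Nr3c2, Esr2 and Pgr most.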
